A study of Mus musculus with 15 samples.

Results

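Small nucleolar RNAs (snoRNAs) and small Cajal body RNAs (scaRNAs) were examined in small RNA libraries from mouse testis. The genes were those whose symbol starts with Snord, Snora or Scarna and that held at least 30 reads summed over the 6 small RNA libraries. They were thus selected on their summed reads, and 64 genes passed, of 150 annotated under these symbols and 49585 genes counted in all. They comprised 45 C/D box genes (Snord), 13 H/ACA box genes (Snora) and 6 scaRNA genes (Scarna), families that were assigned by symbol. Because the rule used the reads themselves, the levels given below are a description. The sum over all 6 libraries does not use the difference between genotypes.

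The study concerns a locus on chromosome 18 that yields pachytene piRNAs, the small RNAs that PIWI proteins bind in meiotic and haploid male germ cells. All samples were whole testes of B6D2F1 mice at postnatal day 28. Small RNA was sequenced from 3 heterozygous (Chr18+/-, labelled as controls) and 3 homozygous (Chr18-/-) libraries, with no wild-type small RNA library among the samples. Long RNA, meaning strand-specific total RNA after depletion of ribosomal RNA, was sequenced from 3 wild-type (Chr18+/+), 3 heterozygous and 3 homozygous libraries. The deleted interval is not given in the sources used here. The labels' protocol treats RNA with periodate and then β-elimination, which is meant to keep RNAs without a methylated 3′ end out of the libraries. It is given for all samples and was read here as that of the small RNA libraries. Genes of miRNA biotype still held 2.97% to 3.48% of the reads in these libraries. The labels do not say whether libraries came from separate animals, and a p-value therefore speaks only to how far these libraries vary, which may be technical.

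C/D box snoRNAs carry the C box near their start and the D box near their end and guide ribose methylation of ribosomal RNA as part of a particle with fibrillarin. H/ACA snoRNAs fold into hairpins, end shortly after an ACA triplet and guide pseudouridylation with dyskerin, and scaRNAs guide the same modifications on spliceosomal RNAs in Cajal bodies. In mammals most are cut from introns of host genes, many of which encode ribosomal proteins or nucleolar factors, while a few have promoters of their own.

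The sequences of 10 genes on which the results turn are shown from RNA start to end, as the DNA letters of GENCODE M21 transcripts. In C/D genes, capitals mark the C box TGATGA within the first 20 bases and the D box CTGA within the last 15 bases. In H/ACA genes, capitals mark ACA within the last 12 bases. Where a motif did not occur in its window, no letters are raised. The first 4 are the C/D genes with the most reads.
Snord82: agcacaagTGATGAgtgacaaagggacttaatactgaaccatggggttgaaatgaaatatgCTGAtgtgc
Snord83b: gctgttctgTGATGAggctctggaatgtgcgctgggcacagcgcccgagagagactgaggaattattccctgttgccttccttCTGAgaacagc
Snord49a: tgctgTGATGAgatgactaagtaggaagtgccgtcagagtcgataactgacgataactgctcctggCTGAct
Snord61: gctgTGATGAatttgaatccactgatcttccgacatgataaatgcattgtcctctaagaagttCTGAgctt
The next 3 lie in 1 host gene, Rpl23a, and are shown because their levels differ although their host is shared.
Snord42a: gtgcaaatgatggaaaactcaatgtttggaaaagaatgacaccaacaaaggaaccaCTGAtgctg
Snord42b: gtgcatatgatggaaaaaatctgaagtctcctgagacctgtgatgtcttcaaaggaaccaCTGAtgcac
Snord4a: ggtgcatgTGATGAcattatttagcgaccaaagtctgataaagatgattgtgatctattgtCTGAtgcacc
Snord118 had the lowest p between genotypes.
Snord118: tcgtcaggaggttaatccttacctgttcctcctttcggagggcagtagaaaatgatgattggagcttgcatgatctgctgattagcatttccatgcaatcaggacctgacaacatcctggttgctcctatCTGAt
The last pair are the H/ACA genes with the most reads.
Snora31: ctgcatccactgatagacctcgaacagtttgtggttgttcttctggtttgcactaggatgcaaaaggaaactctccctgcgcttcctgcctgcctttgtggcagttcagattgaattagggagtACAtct
Snora28: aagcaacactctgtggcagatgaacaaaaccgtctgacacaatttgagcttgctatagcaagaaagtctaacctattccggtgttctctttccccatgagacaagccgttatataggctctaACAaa

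In the mm10 build, Snord82 lies at chr1:86356261-86356330 on the minus strand in Ncl, Snord83b at chr15:80078498-80078591 on the minus strand in Rpl3, and Snord49a at chr11:62603450-62603521 on the plus strand in 2410006H16Rik. Snord61 lies at chrX:57391449-57391519 on the minus strand in Rbmx. The Rpl23a genes lie on the minus strand, Snord42a at chr11:78181299-78181363, Snord42b at chr11:78183056-78183124 and Snord4a at chr11:78181686-78181756. Snord118 lies at chr11:69073427-69073561 on the plus strand with no host. Snora31 lies at chr14:75847905-75848034 in Tpt1 and Snora28 at chr12:111540941-111541067 in Eif5, both on the plus strand. All 150 annotated genes have the same coordinates in the counted annotation and in M21.

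Both boxes occurred in these windows in 26 of the 45 C/D genes with at least 30 reads (57.8%), against 42 of the 54 with fewer (77.8%) and 68.7% of all annotated C/D genes. The D box CTGA was found in 39 of the 45 and the C box TGATGA in 27. An ACA triplet stood near the end of 13 of 13 H/ACA genes, and of 95.2% of all annotated H/ACA genes. These motifs were searched on the RNA strand only, and a missing match means only that the exact letters are not in the window. The median ratio of heterozygous library 1 to the mean of heterozygous libraries 2 and 3, described below, was 8.85 for the 26 genes with both boxes and 10.0 for the other 19.

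The small RNA libraries held between 939641 and 1861402 reads over annotated genes. Heterozygous library 1 did not resemble heterozygous libraries 2 and 3, which bears on every comparison below. Over all genes, the chi-square per degree of freedom was 25.7 between heterozygous libraries 1 and 2 and 27.2 between 1 and 3, but 2.11 between 2 and 3 and 3.34 to 4.39 between pairs of homozygous libraries. Heterozygous library 1 was also the deepest and library 2 the shallowest. The targeted locus could not be examined in the small RNA counts, whose features do not include piRNA precursors. In long RNA the labels held at the locus, where the precursor 18_qE1_36451_1 had 3 to 6 fragments in the homozygous libraries and at least 3983 in every other library.

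The 64 genes together held 145470 reads. C/D genes took 92.4% of them, H/ACA genes 6.57% and scaRNAs 1.04%. The median C/D gene had 1657 reads, the median H/ACA gene 67 and the median scaRNA gene 145.5. Relative to length, the medians were 23.6 reads per base in C/D genes, 0.426 in H/ACA genes and 0.663 in scaRNA genes. C/D genes are also the shorter ones, with a median length of 78 bases against 137 for H/ACA genes. The 10 genes with the most reads, of which 9 are C/D, held 60.5% of all reads of the 64.

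Of the 150 annotated genes, 75 had no read in any library, 53 of them C/D and 22 H/ACA, while each of the 9 scaRNA genes had at least 1. In the counts deposited, reads that fall in exons of more than 1 gene are not assigned. Of the genes with no read, 36 C/D and 21 H/ACA genes overlap an exon of another gene on their strand, and 34 and 17 of these are covered in full. Among genes free of such overlap, 44 of 62 C/D, 12 of 17 H/ACA and 3 of 5 scaRNA genes reached 30 reads. A further 14 C/D genes below the threshold, but none of the 45 above it, have an identical copy elsewhere in the annotation, where reads cannot be placed. Scarna10, with 283 of its 325 bases shared with another exon, Snora73a, with 159 of 205, Scarna3a, with 65 of 140, Scarna3b, with 65 of 139, and Snord42b, with 22 of 69, are therefore counted over part of their length only. Just inside the threshold were Snora78 with 30 reads, Snora17 with 35 and Snora2b with 38, and just outside it were Snord7 with 28, Snora33 with 25 and Snora36b with 23. For 2 of the 64 genes, the reads of 1 genotype summed to fewer than 15.

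Levels are given as CPM, reads relative to the scaled size of the library, in the order of heterozygous libraries 1, 2 and 3 and then homozygous libraries 1, 2 and 3. Snord82, hosted by the nucleolin gene Ncl, had 3388, 418 and 424 CPM in the heterozygous libraries and 1340.3, 2059.7 and 2168 in the homozygous ones. Snord83b, hosted by the ribosomal protein gene Rpl3, had 3490.0, 413 and 514 CPM and then 1331, 1502 and 2052. In both genes the first heterozygous library was the highest of the 6 and the other heterozygous libraries the lowest, with all homozygous libraries in between. Snord49a had 2972, 395 and 458 CPM in heterozygotes and 944, 1385 and 1643 in homozygotes. Snord61, hosted by the splicing regulator gene Rbmx, had 2386, 281 and 286 CPM and then 1024, 1275 and 1464. The same order of libraries held for both.

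The pattern was the same in the next most abundant C/D genes. Snord55 had 2238, 290.1 and 363 CPM in heterozygotes and 752, 1285 and 1527 in homozygotes. Snord58b, in Rpl17, had 1987, 113 and 151 CPM and then 981, 1210.1 and 1411. Snord43, which shares the host Rpl3 with Snord83b and carries the miRNA biotype in M21, had 1794, 148 and 161 CPM and then 722, 839 and 903. Snord104, which has no host gene in the annotation, had 1389, 151 and 185 CPM in heterozygotes and 614, 922 and 1157 in homozygotes. In each of these 4 genes the heterozygous values enclosed all homozygous values, so the genotypes overlapped.

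Snora31, in the gene Tpt1 for the translationally controlled tumour protein, was the single H/ACA gene among the 10 most abundant. It had 1931, 30.4 and 54.1 CPM in heterozygotes and 1059.9, 1201 and 1343 in homozygotes. Its 3255 reads in heterozygous library 1 fell to 30 and 66 in the other heterozygous libraries, against 1557, 1419 and 1391 in the homozygous ones. The next H/ACA genes were far lower. Snora28, in the translation initiation factor gene Eif5, had 129, 8.12 and 18.9 CPM in heterozygotes and 66.0, 60.1 and 85.0 in homozygotes. Snora62, in the laminin receptor gene Rpsa, had 70.6, 7.10 and 18.9 CPM and then 52.4, 74.5 and 63.7. Snora23, in the importin gene Ipo7, had 63.5, 7.10 and 4.92 CPM and then 46.3, 44.0 and 64.7. In Snora62 and Snora23, unlike Snora28, a homozygous library was the highest of the 6.

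Among scaRNAs, Scarna9 in Cep295 had 191, 14.2 and 9.02 CPM in heterozygotes and 70.1, 77.9 and 93.7 in homozygotes. Scarna10, a guide of a spliceosomal RNA hosted by the condensin gene Ncapd2, had 126, 13.2 and 17.2 CPM and then 51.7, 67.7 and 81.1. Scarna2, which has no host, had 41.5, 0 and 2.46 CPM in heterozygotes and 22.5, 19.5 and 29.0 in homozygotes. The value of 0 allows up to 3.04 CPM, the level of 3 reads in that library. These scaRNA genes showed the library order of the abundant C/D genes, at about the level of Snora28 or lower.

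**Figure D1:**
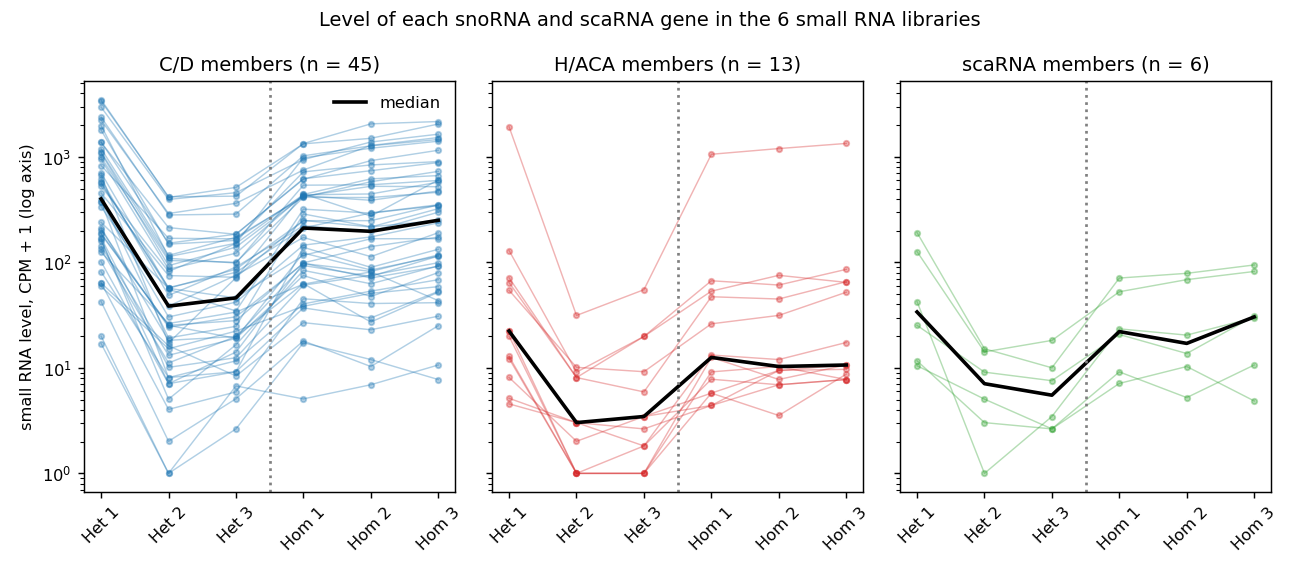
Small RNA level of each of the 64 genes in the 6 libraries as CPM + 1 on a log axis, with C/D genes, H/ACA genes and scaRNA genes in separate panels. Thin lines join the values of 1 gene and the black line is the median of the family; in all 3 panels the median is highest in heterozygous library 1 and lowest in heterozygous libraries 2 or 3.

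Heterozygous library 1 lay above every homozygous library, and every homozygous library above heterozygous libraries 2 and 3, for 54 of the 64 genes. The same order held for 6.73% of all 3581 genes that passed the filter on low counts. It was found in 42 of 45 C/D genes, 8 of 13 H/ACA genes and 4 of 6 scaRNA genes. The 10 genes without it were Snord118, Snora62, Snora23, Scarna3a, Snord23, Snord8, Scarna3b, Snora73a, Snora17 and Snora78. In 63 of the 64, Snord8 being the exception, all homozygous libraries lay above heterozygous libraries 2 and 3, against 23.3% of all genes. The lowest library was heterozygous library 2 or 3 in all 64. The 3 heterozygous and 3 homozygous values were separated without overlap in 0 of the 64 genes, against 15.9% of all genes. This order was looked for after the values had been seen.

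The size of the gap between heterozygous libraries was measured as the ratio of library 1 to the mean of libraries 2 and 3. Its median was 8.41 over the 57 genes with more than 3 reads in the latter libraries together, and 8.90 over all 64 with the other 7 set to that floor. By family the median was 9.01 in 44 C/D genes, 5.80 in 8 H/ACA genes and 5.82 in 5 scaRNA genes, or 9.08, 8.72 and 7.05 with the genes at the floor. The ratio ran from 1.59 for Snora78 to 48.9 for Snord85. Snord85 had 374, 7.10 and 8.20 CPM in heterozygotes and 138, 88.9 and 132 in homozygotes. Snora31 followed with a ratio of 45.7 and, among the 57 genes, Snord98, in Ccar1, with 19.0. Scarna2, with 3 reads in libraries 2 and 3 together, had a ratio of 30.5 at the floor. As those reads equal the floor, this is not a lower bound. At the other end of the C/D family, Snord88c had a ratio of 3.27, with 58.1, 14.2 and 21.3 CPM in heterozygotes. The median homozygous mean was 4.41 times the mean of heterozygous libraries 2 and 3, over the same 57 genes, and the median ratio of heterozygous library 1 to the homozygous mean was 1.88.

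The relative composition of these RNAs changed less than their sum. Across the 64 genes, log levels in 2 libraries correlated with r between 0.912 and 0.988, the lowest for heterozygous library 2 with homozygous library 1. These coefficients are across genes that share their libraries, and they carry no test. C/D genes held between 91.0% and 97.2% of the reads of the 64 in every library. H/ACA genes held 6.20% of them in heterozygous library 1 and 7.10 to 7.89% in the homozygous libraries, but 1.75% and 2.40% in heterozygous libraries 2 and 3. Most of this difference lay in 1 gene. Snora31 alone held 5.10% in heterozygous library 1, 5.67 to 6.41% in homozygotes, and 0.772% and 1.15% in heterozygous libraries 2 and 3. Without Snora31, the summed H/ACA reads of heterozygous library 1 stood at 8.52 times those of libraries 2 and 3, close to the 8.37 of C/D genes, and with it at 25.8 times. Snord118 moved the other way, from 1.39% of the reads in heterozygous library 1 to 2.06% and 3.19% in libraries 2 and 3, against 2.66 to 3.16% in homozygotes.

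Other RNA classes moved with these genes. The 64 genes together made up 3.43%, 0.414% and 0.494% of all reads in heterozygous libraries 1, 2 and 3, and 1.68%, 1.82% and 2.18% in the homozygous ones. Among 47 other genes of snoRNA or scaRNA biotype with at least 30 reads, 40 (85.1%) showed the same order of libraries. In CPM, heterozygous library 1 stood at 7.00 times the mean of libraries 2 and 3 for the sum of all 1409 other genes of these biotypes, at 8.80 times for mitochondrial tRNA genes, 6.86 times for mitochondrial rRNA genes, 5.57 times for ribozyme genes and 3.14 times for snRNA genes. The corresponding ratios were 1.02 for miRNA genes, 1.08 for lincRNA genes and 1.10 for protein-coding genes. Mitochondrial tRNA reads made up 1.01%, 0.106% and 0.160% of the heterozygous and 0.990%, 0.806% and 1.17% of the homozygous libraries. The part of these classes in the gaps between libraries was not tested. In whole testis, fewer cells of a type and less RNA per cell cannot be told apart.

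**Figure D2:**
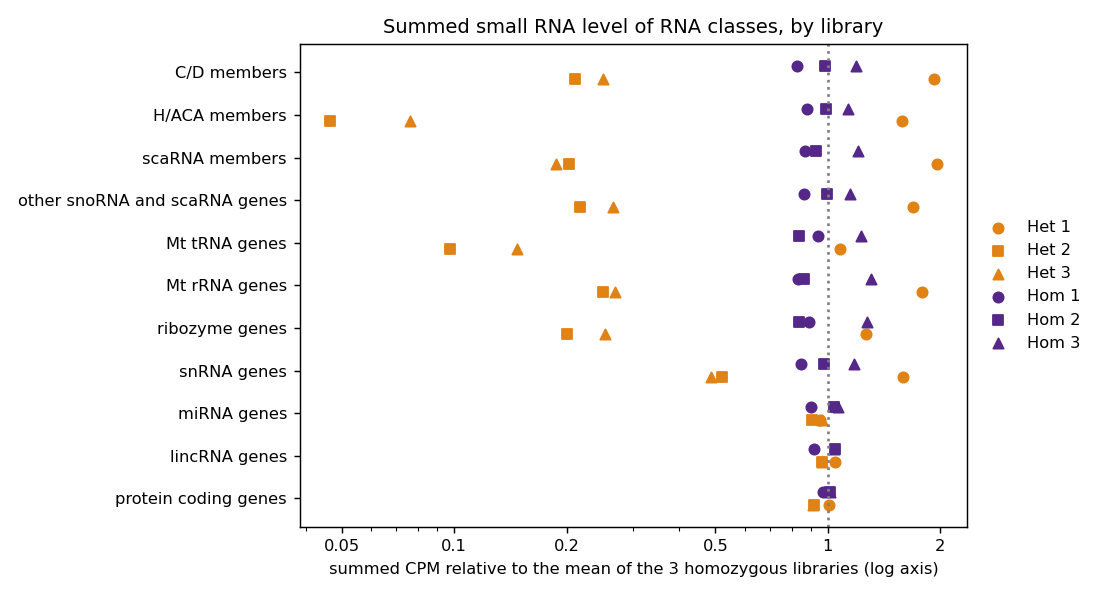
Summed CPM of RNA classes in each small RNA library, relative to the mean of the 3 homozygous libraries on a log axis, with heterozygous libraries in orange and homozygous libraries in purple. The C/D, H/ACA and scaRNA rows place heterozygous libraries 2 and 3 far to the left of 1 and library 1 to the right, as do the mitochondrial rRNA and snRNA rows, while in the mitochondrial tRNA and ribozyme rows library 1 lies within the homozygous range and the miRNA, lincRNA and protein-coding rows stay near 1.

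The spread was therefore wider among the heterozygous than among the homozygous libraries. It came from the gap between heterozygous library 1 and libraries 2 and 3. A trait of the genotype, an odd library 1 and odd libraries 2 and 3 cannot be told apart here. Across the 64 genes, log levels of heterozygous library 1 correlated with those of homozygous libraries at 0.972 to 0.988. For heterozygous libraries 2 and 3 the range was 0.912 to 0.953. The coefficient of variation (CV, the SD divided by the mean) over 3 libraries had a median of 127% in heterozygotes and 22.1% in homozygotes. It was larger in heterozygotes for 63 of the 64 genes, with Snora78 the exception at 29.4% against 32.6%. For comparison over like counts, 52 of the genes have at least 100 reads. Their median CV was 127% in heterozygotes and 21.2% in homozygotes, 17.6 and 2.57 times what counting error alone gives. Over 2387 other genes with reads in the same range, the medians were 20.1% and 15.8%, or 1.36 and 1.07 times counting error. The heterozygous CV was the larger in 52 of 52 of these snoRNA and scaRNA genes and in 60.9% of the other genes.

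Within each genotype the excess over counting error varied among the 52 genes. In heterozygotes it was highest for Snord82 (57.1 times), Snord83b (57.0) and Snora31 (54.2), and lowest for Scarna3a (3.30), Snord88c (5.12) and Snora47. In homozygotes it was highest for Snord55 (12.5 times), Snord82 (11.4) and Snord49a (10.6). Snord4a, with 44.2, 39.8 and 40.6 CPM in homozygotes, varied by less than counting error (0.412 times), as did Snord35a (0.860). Abundant genes have little counting error, so that a given CV is a larger multiple of it. By family, the median homozygous CV was 22.1% in C/D and 30.1% in scaRNA genes, where counting error alone gives a median of 5.88% and 19.3%. In H/ACA genes counting error alone gives 29.3%, more than the median CV seen.

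**Figure D3:**
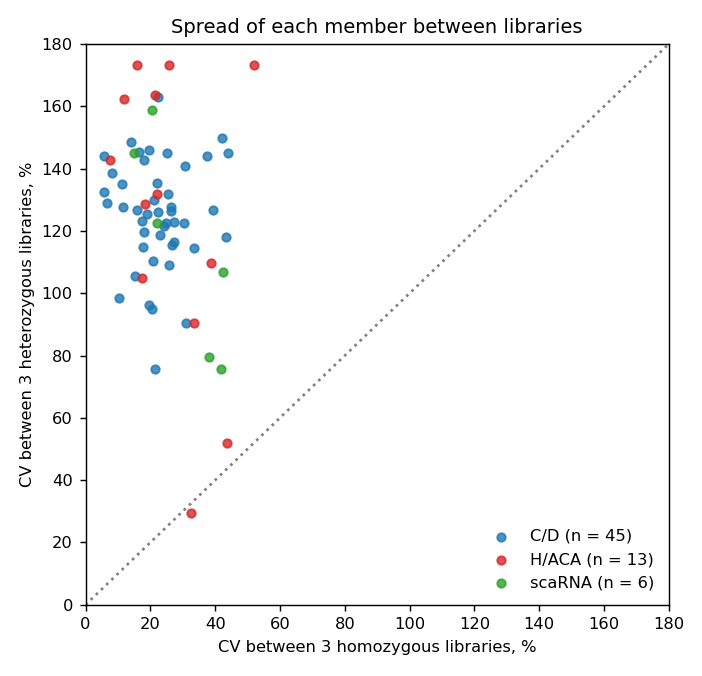
Coefficient of variation of each of the 64 genes between the 3 homozygous libraries (horizontal axis, %) and between the 3 heterozygous libraries (vertical axis, %), coloured by family. The dotted line marks equal spread, and all points but Snora78 lie above it.

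The comparison of genotypes asked whether loss of the chromosome 18 locus came with a change in these small RNAs. Of the 64 genes, 57 had enough reads to be tested, and 0 differed between homozygotes and heterozygotes in edgeR's quasi-likelihood test at a Benjamini-Hochberg adjusted p of 0.05, as 0 did in DESeq2. In edgeR, 0.0279% of all 3581 genes tested were called, and 0 of the 57 had an unadjusted p under 0.05. The median log2 fold change was 0.34 over the 57 genes and -0.01 over all genes tested. It was 0.30 in C/D genes, 0.69 in H/ACA genes and 0.41 in scaRNA genes, and 49 of the 57 estimates were positive. The 64 genes summed to 1.45% ± 1.72 of reads over the heterozygous and 1.89% ± 0.261 over the homozygous libraries (SD, n = 3 for both), a ratio of 1.31.

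The lowest p belonged to Snord118, an RNA of ribosome assembly whose human counterpart is mutated in a brain disease with calcifications. It had 527, 81.2 and 150.1 CPM in heterozygotes and 440.4, 619 and 665 in homozygotes, so that 1 heterozygous library lay within the homozygous range. Its log2 fold change was 1.18 (SE 0.58, unadjusted p = 0.0754, edgeR adjusted p = 0.561). Snora62 (log2 fold change 0.91, SE 0.61) and Snora23 (0.93, SE 0.73) followed. The 3 negative estimates with the lowest p were those of Snord35a (-0.22, SE 0.63), Snord65 (-0.25, SE 0.78) and Snord85 (-0.14, SE 1.16). For Snora31 the estimate was 0.83 (SE 1.22) and for Snord82 0.40 (SE 0.74). The standard errors of these 8 estimates were all 0.58 or larger on the log2 scale. With no filter on low counts, 2 of 64 were called higher, Snord118 (1.22, SE 0.22, edgeR adjusted p = 1.31e-04) and Snora31 (0.88, edgeR adjusted p = 0.0105), where 0.232% of 18574 genes were called.

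Which heterozygous library was kept decided the outcome. With heterozygous library 1 left out, 55 of 55 tested genes were higher in homozygotes, where 9.26% of all genes were called higher, 6.83% lower and 16.1% in either direction. The median log2 fold change of C/D genes was then 2.18, and that of Snora31 was 4.80 (SE 0.20, edgeR adjusted p = 4.12e-19). With heterozygous libraries 2 and 3 left out, which leaves a single heterozygous library assumed to vary like the homozygous ones, 34 of 63 tested genes were lower in homozygotes and 0 higher, where 1.36% of all genes were called lower, 0.0865% higher and 1.45% in either direction. The C/D median was then -0.98, and Snord85 had the largest drop of the 19 genes chosen for naming (-1.63, SE 0.22, edgeR adjusted p = 4.80e-05). Snord118 was at 2.29 (SE 0.20, edgeR adjusted p = 3.81e-11) in the first case and at 0.13 (SE 0.22, edgeR adjusted p = 0.954) in the second. The ratio of summed shares was 4.17 and 0.552 in these cases. Leaving out libraries 2 and 3 together was chosen after the data had been seen.

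**Figure D4:**
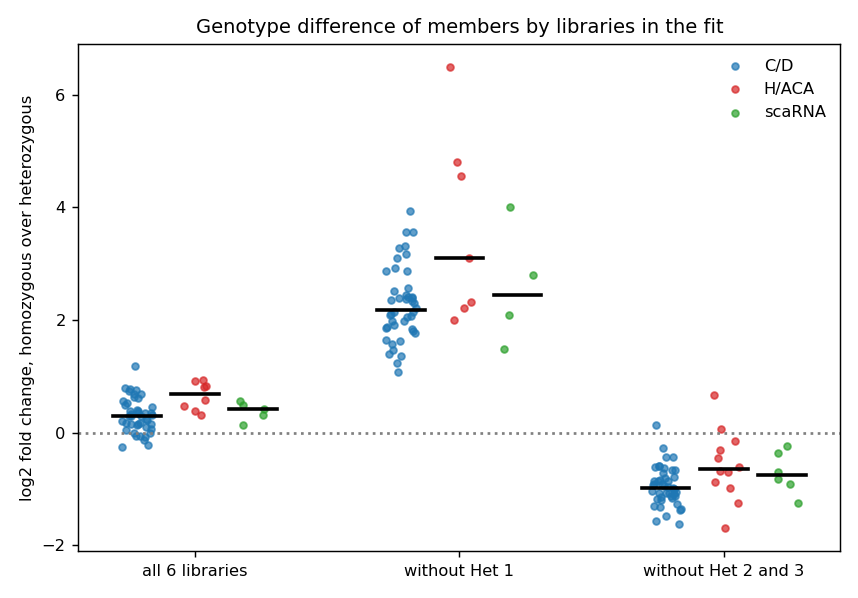
Log2 fold change of each tested gene, homozygous over heterozygous, from 3 fits that used all 6 libraries, all but heterozygous library 1, or all but heterozygous libraries 2 and 3. Points are genes coloured by family and bars are family medians, which lie at 0.30 for C/D genes with all libraries, at 2.18 without library 1 and at -0.98 without libraries 2 and 3.

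Of the 64 genes, 58 lie on the strand of and within 50 annotated host genes, 42 of them protein-coding. The other 6 (Snora17, Scarna2, Snord13, Snord118, Snord104 and Snora57) have no host. Ribosomal protein genes form 11 of the hosts and hold 16 of the genes. Of the 58, 6 lie within a pair of overlapping hosts each, such as Snora73a and Snora73b in Rcc1 and Snhg3.

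Genes from the same host stood at different levels. In the homozygous libraries, whose replicates were closer, the 3 C/D genes of 2410006H16Rik had means of 1324 ± 354 CPM for Snord49a, 78.8 ± 15.4 for Snord49b and 46.4 ± 18.3 for Snord65 (SD, n = 3). All 3 are 72 bases long, and the highest mean was 28.5 times the lowest. In Rpl13a, Snord34 had 430.0 ± 43.8 CPM, Snord32a 158 ± 40.5 and Snord35a 25.9 ± 3.97, a range of 16.6-fold. Snord53 and Snord92 of Wdr43, a gene of ribosome assembly, differed 11.3-fold. In Rpl23a, whose 3 snoRNA sequences are printed above, Snord42a had 262 ± 54.6 CPM, Snord42b, counted over part of its length, 149.8 ± 29.5 and Snord4a 41.5 ± 2.39. Snord70 and Snord11 of Nop58 differed 6.02-fold, while Snord83b and Snord43 of Rpl3 differed 1.98-fold and Snord69 and Snord19 of Gnl3, the gene of nucleostemin, 1.72-fold. Levels of genes of different length are compared here without division by length, and the lengths within these hosts lie between 64 and 108 bases except for the Snora73 pair.

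Host level did not order the snoRNA levels. Across 52 genes with 1 host, the log small RNA level and the log host level per length in long RNA correlated with r = 0.121, and across 38 C/D genes with r = 0.112. Level and length correlated with r = -0.249 across the 45 C/D genes. These are descriptions across genes that share libraries and, in part, hosts. Small RNA reads in host exons did not show a gap between heterozygous libraries of the size seen in the snoRNAs. Of the 23 hosts with at least 30 such reads, 0 had heterozygous library 1 above and libraries 2 and 3 below all homozygous libraries. That order held for 6.73% of all genes tested, so that 0 of 23 is near the share over all genes and says little. The median ratio of library 1 to libraries 2 and 3 was 1.19 for these hosts and 0.99 over all genes tested. It was 9.18 for the 25 genes inside these hosts that have a ratio. Exonic reads of Ncl, for example, numbered 51, 26 and 34 in heterozygotes and 53, 31 and 33 in homozygotes, where those of Snord82 numbered 5710, 412 and 517 and then 1969, 2434 and 2245.

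In long RNA, 49 of the 50 hosts were tested. Between homozygotes and heterozygotes, 0 hosts differed in edgeR at an adjusted p of 0.05, with 0 at an unadjusted p under 0.05 and 0 in DESeq2. Of all 20782 features tested, 0.0289% were called, 0.0144% higher and 0.0144% lower. The median log2 fold change was 0.04 over hosts and 0.01 over all features. The hosts of the most abundant genes show how flat the comparison was. Ncl had 29.4, 26.3 and 29.6 CPM in heterozygotes and 25.2, 26.1 and 29.7 in homozygotes, and Tpt1 had 92.2, 97.7 and 94.5 CPM and then 97.8, 101 and 105.

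Against wild type, both other genotypes differed at many hosts. The edgeR test called 20 hosts in homozygotes, 11 upward and 9 downward, which is 40.8% of those tested. Of all features 20.8% were called there, 9.68% higher and 11.1% lower. In heterozygotes it called 9 hosts upward and 11 downward, again 40.8%, where 23.9% of all features were called, 11.1% higher and 12.9% lower. Both comparisons use the same wild-type libraries. In long RNA, the chi-square per degree of freedom was 47.6 and 50.7 between wild-type library 1 and libraries 2 and 3. Between wild-type libraries 2 and 3 it was 3.12. Heterozygous library 1 also stood apart in long RNA, with 39.2 and 42.6 against libraries 2 and 3, which had 17.9 between them. Rbmx, host of Snord61, had 8.66, 8.09 and 9.37 CPM in the wild-type libraries, 14.3, 12.1 and 13.6 in the heterozygous and 12.7, 14.3 and 13.8 in the homozygous libraries, without overlap with wild type. Its log2 fold change in homozygotes was 0.64 (SE 0.12, edgeR adjusted p = 0.00434). Rpl23a was higher (0.84, SE 0.16, edgeR adjusted p = 0.00608), with 23.4, 20.98 and 22.1 CPM in wild type and 36.4, 43.0 and 39.5 in homozygotes, as was the non-coding host Snhg6 of Snord87 (0.81, SE 0.17, edgeR adjusted p = 0.00871). Gm28496, 1 of the hosts of Snord88c, fell from 5.67, 6.43 and 6.73 CPM to 3.79, 3.04 and 3.04 (-0.93, SE 0.16, edgeR adjusted p = 0.00367). The ribosomal protein hosts went both ways, with 2 of 11 higher and 3 lower in homozygotes, Rpl3 (-0.42) among the latter. The translation elongation factor gene Eef2 (-0.53) and Rcc1, the exchange factor of Ran (-0.60), were also lower. Without homozygous library 2, 9 hosts were called against wild type in homozygotes, without homozygous library 3, 7, and without wild-type library 3, 12. Without heterozygous library 3, 11 were called in heterozygotes. Over all features, calls against wild type also fell whenever a single library was left out. With no scaling of libraries, 15 hosts were higher and 8 lower in heterozygotes. The median log2 fold change of all features moved up by 0.102 under that setting.

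**Figure D5:**
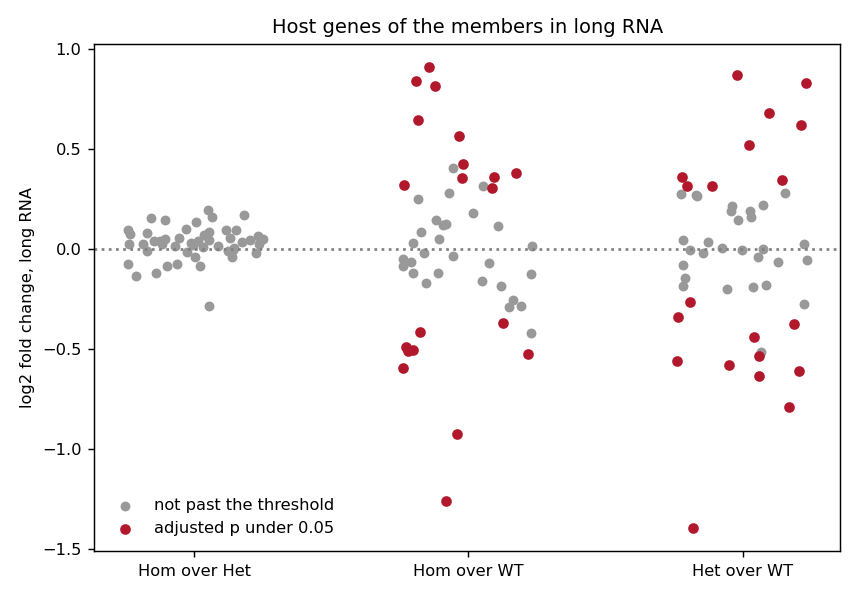
Log2 fold change in long RNA of the 49 tested host genes for homozygous over heterozygous, homozygous over wild-type and heterozygous over wild-type libraries. Red points have an edgeR adjusted p under 0.05; there are 0 in the first comparison and 20 in each of the others.

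Some cell type markers in long RNA shifted beside these host differences, while others did not. Against wild type, 20.8% of all features were called in homozygotes and 23.9% in heterozygotes. The summed level of 6 Leydig cell markers was 1012 to 1130.2 CPM in wild type, 439 to 581 in heterozygotes and 404 to 551 in homozygotes, with 5 of 5 tested lower against wild type in each of the latter and Insl3 at 0 in all libraries. The 5 elongating spermatid markers summed to 10711 to 11216 CPM in wild type, 3519.7 to 9321 in heterozygotes and 5979 to 8236 in homozygotes, with 2 of 5 lower. Spermatocyte markers summed to 919.8 to 956 CPM in wild type, 1017 to 1181 in heterozygotes and 1117 to 1186 in homozygotes, with 4 of 6 higher in homozygotes and 3 higher and 1 lower in heterozygotes. Against wild type, Sertoli markers had 0 of 6 called in homozygotes and 1 of 6 in heterozygotes. Macrophage and endothelial markers had 0 of 4 called in each. Of 4 peritubular myoid markers, 1 was lower in homozygotes and 0 in heterozygotes. In both genotypes, 1 of 4 round spermatid markers was higher, and 1 of 4 spermatogonia markers was higher and 1 lower. Red blood cell markers had 1 of 3 lower in both, and epididymis markers 0 of 2 tested. The part of the markers in the host differences was not tested. Between homozygotes and heterozygotes, 0 markers were called.

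Proteins of the snoRNA particles and their assembly were followed through 36 listed genes, all tested in long RNA. Between homozygotes and heterozygotes 0 differed, with 0 at an unadjusted p under 0.05 in edgeR and 0 in DESeq2. Relative to wild type, 7 of the 36 were higher and 3 lower in homozygotes, with a median log2 fold change of 0.06 beside -0.01 over all features. The 10 calls are 27.8% of the list, where 20.8% of all features were called, 9.68% higher and 11.1% lower. In heterozygotes 7 were higher and 4 lower, with a median of 0.03 beside 0.00. The 11 calls are 30.6% of the list, where 23.9% of all features were called, 11.1% higher and 12.9% lower. Of the core C/D proteins, Nop58 was higher in homozygotes (0.36, edgeR adjusted p = 0.0261), while the fibrillarin gene Fbl (0.09), Nop56 (0.18) and Snu13 (-0.13) did not pass. Of the core H/ACA proteins, the dyskerin gene Dkc1 (0.09), Nop10 (-0.34), Nhp2 (0.29) and Gar1 (-0.23) did not pass in homozygotes, and Nop10 was lower in heterozygotes (-0.41, edgeR adjusted p = 0.0363).

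Among assembly factors, Naf1 (0.43) and Znhit6 (0.49) were higher and Ruvbl2 (-0.63) and Pih1d1 (-0.44) lower in homozygotes than in wild type. Tgs1, which caps small RNAs (0.64), and Mtrex, the helicase of the nuclear exosome (0.49, edgeR adjusted p = 0.00430), were higher, as were Xrn2 (0.26) and Dicer1 (0.45). Coil, the Cajal body protein coilin, was lower (-0.39). Henmt1, which methylates the 3′ end of piRNAs, did not pass in homozygotes (-0.13) or heterozygotes (-0.19). Without homozygous library 2, 6 of the 36 were called in homozygotes. Without wild-type library 2 or heterozygous library 3, 7 were called in heterozygotes. With no scaling 10 were higher and 3 lower there, where the median log2 fold change of all features moved up by 0.102.

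Of the 64 genes themselves, the 6 without a host had fragments in long RNA, while the 58 with a host were at 0. The counting command in the file headers does not set the option that assigns a fragment to more than 1 gene. Fragments of Scarna2 numbered 2444, 1092 and 1005 in the wild-type libraries, 2036, 895 and 459 in the heterozygous libraries and 1017, 535 and 573 in the homozygous libraries. As levels these were 53.8 ± 18.9, 30.8 ± 15.4 and 25.6 ± 9.18 CPM (SD, n = 3 each). Fragments of Snord118 numbered 482, 293 and 187 in the wild-type libraries, 279, 234 and 116 in the heterozygous libraries and 232, 147 and 160 in the homozygous libraries, or 11.4 ± 3.22, 6.06 ± 1.94 and 6.51 ± 1.57 CPM (SD, n = 3 each). In CPM, all homozygous libraries lay below all wild-type libraries for both genes, and so did all heterozygous libraries for Snord118 but not for Scarna2. For Snord118 the separation was slim, with a lowest wild-type value of 8.51 CPM and a highest homozygous value of 8.22. Both are genes called against wild type below, and the share of all long RNA features separated in this way is not given here. Between homozygotes and heterozygotes 0 of the 6 differed, with 0 at an unadjusted p under 0.05 in edgeR and 0 in DESeq2, and Snord118 had a log2 fold change of 0.10 (SE 0.26) where its estimate in small RNA was 1.18 (SE 0.58).

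Against wild type, Scarna2 (-1.07, SE 0.35, edgeR adjusted p = 0.0488) and Snord118 (-0.82, SE 0.26, edgeR adjusted p = 0.0428) were lower in homozygotes, and Snord118 was lower in heterozygotes (-0.91, SE 0.26, edgeR adjusted p = 0.0246). These are 2 and 1 of the 6 genes, where 20.8% of all features were called in homozygotes, 11.1% lower, and 23.9% in heterozygotes, 12.9% lower. The calls rested on single libraries. Leaving out wild-type library 1, wild-type library 2, homozygous library 2 or homozygous library 3 gave 0 calls in homozygotes, and wild-type library 3 gave 1. In heterozygotes, leaving out wild-type library 1 or heterozygous library 3 gave 0 calls, and leaving out wild-type library 2 or heterozygous library 1 gave 2. Snord104 (-0.26), Snord13 (-0.12), Snora57 (-0.19) and Snora17 (-0.17) did not pass in homozygotes.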

How the data were processed

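Values are raw read counts that the authors deposited, 1 table per library, not normalized. Per the file headers, small RNA reads were counted with featureCounts 1.6.1 on the sense strand over exons per gene of GENCODE M12, and long RNA with featureCounts 1.6.2 as fragments with both ends mapped over whole gene bodies, introns included, of the same annotation plus 466 piRNA precursors. Long RNA counts of the reverse strand setting were used, and the opposite setting (8.81 to 10.7% of them) served as a check of strand. Unspliced RNA enters each host value. The submitters' processing notes name cutadapt 1.18, HISAT2 2.1.0 and Bowtie2 2.2.5 among others, with the mm10 and mm9 builds and no roles. Which aligner served which assay is not given in the sources used here.

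Symbols matched 49326 of 49585 gene IDs. Low counts were removed with filterByExpr, leaving 3581 small RNA and 20782 long RNA features, libraries were scaled by TMM, and the 6 small RNA and the 9 long RNA libraries each entered 1 fit with edgeR 4.0.16 (quasi-likelihood test, limma 3.58.1, R 4.3.3), with Benjamini-Hochberg adjustment over all features and a threshold of 0.05. DESeq2 1.42.0 was an alternative. The standard error is the log2 fold change divided by the square root of F. The fits were tested on simulated counts without an outlying library. This does not show how they behave with the gap between heterozygous libraries seen here. Long RNA held 21684791 to 41513634 fragments per library. A host is a gene of the same strand whose body contains the snoRNA gene. A level of 0 was read as up to 3 reads, and this covers counting error only.

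Named were the 8 C/D, 4 H/ACA and 3 scaRNA genes with the most reads, the 3 lowest p in each direction, the extremes of spread, the genes around the threshold, hosts of the 12 most abundant genes, hosts of at least 2 genes, and the lowest adjusted p among hosts and among listed genes. Others were named after their values were seen. The genes and lists were chosen with earlier results of these data known. Of the listed names, Nopchap1 found no match, and 2 were other names of listed genes. Library numbers in the small RNA labels were not taken to pair the samples. Deviations of same-numbered libraries correlated at -0.16, 0.00 and -0.09. These values carry no test and were not set beside differently numbered libraries, so they cannot exclude a pairing. Alternatives were other scalings, filters, member thresholds, DESeq2, a replicate block, only the groups compared, and each library left out.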

Additional observations from a re-analysis of the deposited data

How the results depend on the processing

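The genotype comparison in small RNA depended on the heterozygous libraries. Without libraries 2 and 3 together, an alternative chosen after seeing the data, 67 genes in all and 34 of the snoRNA and scaRNA genes were called. The log2 fold changes then turned negative for Snord82 (-0.86), Snord83b (-1.09), Snord49a (-1.16), Snord61 (-0.92), Snord55 (-0.91), Snord58b (-0.72), Snord43 (-1.12), Snord104 (-0.62), Snora31 (-0.68), Snora28 (-0.87), Snora62 (-0.15), Snora23 (-0.30), Scarna9 (-1.25), Scarna10 (-0.92) and Scarna2 (-0.82). With single libraries left out, called genes ranged from 0 to 617 in all and from 0 to 55 among the 64, the C/D median from -0.17 to 2.18, the H/ACA median from 0.29 to 3.09 and the ratio of summed shares from 0.965 to 4.17. The sign changed within the ranges of Snord82 (-0.040 to 2.14), Snord83b (-0.30 to 1.81), Snord49a (-0.38 to 1.63), Snord61 (-0.093 to 2.14), Snord55 (-0.13 to 1.86), Snord43 (-0.25 to 2.41), Snora28 (-0.10 to 2.32), Scarna9 (-0.38 to 2.80), Scarna10 (-0.13 to 2.10), Snord35a (-0.67 to 1.23), Snord65 (-0.72 to 1.65) and Snord85 (-0.69 to 3.94). The highest values came without heterozygous library 1. With no filter, 43 genes in all and 2 of the 64 were called.

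A replicate block was tried on the library numbers, which were not taken to pair the samples. With it, 0 genes in all and 0 of the 64 were called. The C/D median was 1.11 and the H/ACA median 1.19, and Snord35a (0.15), Snord65 (0.40) and Snord85 (1.94) turned positive. In long RNA, features called between homozygotes and heterozygotes numbered 17 in DESeq2, 13 with no filter and 4 to 18 with single libraries left out. Against wild type, leaving out single libraries gave 1805 to 3885 features, 7 to 17 hosts and 6 to 10 listed protein genes in homozygotes, and 2432 to 4720 features, 11 to 19 hosts and 7 to 10 protein genes in heterozygotes. Of the 6 genes without a host, 1 was called in homozygotes by DESeq2, 0 with no scaling and 0 to 2 with single libraries left out. In heterozygotes 2 were called with no filter and 0 to 2 with single libraries left out. The causes were not tested. Thresholds of 10 or 100 reads gave 70 or 52 genes, of which 0 were called. Low counts limit H/ACA and scaRNA genes most.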
